A study of Homo sapiens with 12 samples.

Results

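The comparison set GFP-low against GFP-high Raji cells, both kept in the vehicle DMSO and collected at 24 h. Raji is an established human line from a Burkitt lymphoma, a tumour that resembles germinal centre B cells. The members were chosen by their labels and not by measured values: 6 of the series' 12 libraries, 3 GFP-low DMSO and 3 GFP-high DMSO, with every gene that passed a filter on low counts. The labels also call the DMSO libraries untreated. The other 6 libraries came from the same gates treated with FX1, a compound that blocks the repressor BCL6. The design text names an auxin-inducible degron for SMARCA4 protein, and the labels give the genotype Smarca4+/+ to all 12 libraries. They do not state how GFP relates to SMARCA4 protein, whether auxin was given, how the cells were sorted, or whether the degron line is 1 clone. The groups are therefore called by their gate and treatment.

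SMARCA4 (BRG1) is one of the alternative ATPases of the SWI/SNF complexes, which move and eject nucleosomes and so alter the access of transcription factors to DNA. In germinal centre B cells, BCL6 holds down genes of activation and of plasma cell fate, among them PRDM1, and cells move between a proliferating dark zone and an antigen-selecting light zone. A degron acts on protein, so SMARCA4 RNA levels cannot check the gates.

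Total counts in the 6 DMSO libraries ran from 24146581 to 34466046. The spread within groups beyond counting error, edgeR's common coefficient of variation over all 12 libraries, was 1.67%. Gene counts of library pairs within a group varied 1.67 to 1.94 times as much as random sampling of reads gives, so no library repeated another. The first principal component of the 6 libraries held 83% of the variance and separated the gates, and the next held 5.08%. The labels leave unsaid whether the 3 libraries of each group were grown as separate cultures. The p-values therefore reflect the variation among these libraries alone, and that variation may be technical. A difference between cultures or preparations that coincides with the gates cannot be told apart from the gate. All 10 B-cell markers were measured above the filter, 4 higher and 5 lower in GFP-low cells, and their summed level was 5220 to 5250 CPM in GFP-low and 6060 to 6130 CPM in GFP-high libraries. CPM are counts per 1e6 counts of the library total scaled by the trimmed mean of M-values (TMM). Of 9 germinal centre B-cell markers 1 was higher and 6 were lower. Myeloid markers were near 0 (4 of 12 tested, 1 higher and 0 lower, summed 2.79 to 3.96 CPM in GFP-low and 2.54 to 2.72 CPM in GFP-high, with CD163, ELANE and S100A8 at 0 in all 6). Of 11 epithelial and stromal markers 2 were tested, 1 higher and 0 lower, with a sum of 12.8 to 13.6 CPM in GFP-low and 8.84 to 10.5 CPM in GFP-high libraries, and COL3A1, KRT18 and KRT19 were at 0.

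The gate difference touched many genes and was small for most of them. Of 17859 genes tested, 8233 (46.1%) passed an adjusted p of 0.05 in edgeR's quasi-likelihood test, 3876 (21.7%) higher and 4357 (24.4%) lower in GFP-low cells. Yet 83.2% of the called genes lay within 1.5-fold, with a median absolute log2 change of 0.28. At an estimated 2-fold or more, 374 were higher and 216 lower (590 genes, 3.3% of those tested). Tested against a floor of 1.5-fold with edgeR's glmTreat, 199 genes (1.11%) passed, 75 higher and 124 lower. The lower ones held 31 processed pseudogenes, 28 short noncoding RNA genes and 17 genes of the mitochondrial genome. Among 11726 protein-coding genes 2977 were higher and 3868 lower, with a median log2 change of -0.01. The median over all genes tested was 0.03. Of 9505 protein-coding genes with a mean log2 CPM of 2 or more, 6081 were called with groups that did not overlap. The counts of the gene lists are to be read beside these shares. Calls made up 64.9% of the nuclear respiratory chain list, 67.7% of the proteasome list and 58.3% of the germinal centre identity list. Such shares do not set a list apart from expressed genes.

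The largest falls among nuclear protein-coding genes were in lymphocyte signalling genes and in a pair of histone genes. SH2D1A (ENSG00000183918.17, hg38 chromosome X, 124227868 to 124373197) encodes SAP, the adaptor that couples SLAM-family receptors to Src-type kinases. It had 11.5, 13.5 and 13.9 CPM in GFP-low libraries, against 39.6, 35.2 and 37 CPM in GFP-high libraries, a log2 change of -1.52 ± 0.064 (SE, n = 3 each, edgeR adjusted p = 2.5e-62). Every GFP-low library lay below every GFP-high library. UBASH3A, which restrains antigen receptor signalling in T cells, had 3.99, 3.08 and 3.19 CPM in GFP-low libraries and 9.6, 9.26 and 9.73 CPM in GFP-high libraries (-1.48 ± 0.14). LTB, the lymphotoxin beta chain that anchors lymphotoxin on the cell surface, had 26, 23.6 and 25 CPM in GFP-low libraries and 62, 64.2 and 60.5 CPM in GFP-high libraries (-1.33 ± 0.045). The groups did not overlap for either gene.

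SH2D1A and UBASH3A are best known from T cells, so T and NK cell markers are given beside them. Of 15 such markers 7 were tested, 0 were higher and 4 (LCK, TRAC, CD247 and CD3E) were lower, with a median of -0.58. Their summed level was 19 to 21.2 CPM in GFP-low and 29.4 to 29.9 CPM in GFP-high libraries. CD8A and NCAM1 were at 0 in all 6 libraries, and 8 of the 15 stayed under 10 counts in every library. The largest share of the sum was the kinase LCK, at 10.2, 10.7 and 11.1 CPM in GFP-low and 16.4, 15.2 and 16.4 CPM in GFP-high libraries. The part of such cells in the change of SH2D1A and UBASH3A was not tested. In bulk RNA, fewer cells of a type and less RNA per cell cannot be told apart.

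Other large falls were in TMPRSS3, a membrane serine protease gene (-1.14 ± 0.048), SPATA48 (-1.23 ± 0.15) and FABP5, a fatty acid binding protein gene (-1.09 ± 0.037). CHD5, a chromatin remodeller of the CHD family, had 3.05, 2.06 and 2.38 CPM in GFP-low libraries and 5.22, 4.94 and 6.37 CPM in GFP-high libraries (-1.14 ± 0.16, adjusted p = 3.2e-11). Its groups did not overlap. Genes were ranked above a mean log2 CPM of 2 over both gates, which UBASH3A, SPATA48 and CHD5 passed through their GFP-high level only. Their place among the largest falls thus rests in part on the difference itself. SH2D1A and CHD5 share exon sequence with another annotated gene on the same strand, so their values are uncertain to that extent. FABP5 overlaps a gene on the opposite strand, which matters only if strands were not separated in counting. The strand setting is not stated.

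By the same rule, the largest rises among protein-coding genes were smaller than the largest falls and spread over unrelated functions. ADAMTS13, the protease that trims von Willebrand factor, had 5.5, 6.85 and 5.54 CPM in GFP-low libraries and 2.9, 2.41 and 2.46 CPM in GFP-high libraries (1.22 ± 0.14, adjusted p = 1.8e-14). MRPL12, a protein of the large mitochondrial ribosomal subunit, had 28.3, 26.1 and 27.3 CPM in GFP-low libraries and 14.5, 13 and 13.6 CPM in GFP-high libraries (1 ± 0.064). PRDM1, the gene of BLIMP1, a repressor needed for plasma cells, had 38.4, 37.7 and 38.7 CPM in GFP-low libraries and 19.3, 20.3 and 18.9 CPM in GFP-high libraries (0.97 ± 0.048). In all 3 genes the lowest GFP-low library stood above the highest GFP-high library. The same held for MCRIP1, a binding partner of the corepressor CtBP (1.07), NME3, a nucleoside diphosphate kinase (1.02), MAP2K6, a kinase that activates p38 (1), CCDC102A (0.99) and ALDH4A1, an enzyme of proline breakdown (0.97). It held too for FBXL8, an F-box protein gene (0.96), VPS26B of the retromer sorting complex (0.96), PSMB10, a catalytic subunit of the immunoproteasome (0.92), and TOR4A (0.91). Most of these genes have GC-rich transcripts, up to 69.4% in FBXL8, while MAP2K6 is at 38.5% and PRDM1 at 45.7%. A further fit took a trend on transcript GC content and length out of each library. There FBXL8 was at 0.61, TOR4A at 0.59, CCDC102A at 0.71, NME3 at 0.77, MRPL12 at 0.78 and ADAMTS13 at 0.96. The other rises named here were smaller too, except MAP2K6 (1.07) and PRDM1 (1.03). MRPL12, NME3, ALDH4A1, FBXL8, VPS26B and PSMB10 share exon sequence with another annotated gene. ADAMTS13, CCDC102A, ALDH4A1, FBXL8 and TOR4A passed the cut on mean level through GFP-low only, so their place among the largest rises rests in part on the difference itself.

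**Figure D1:**
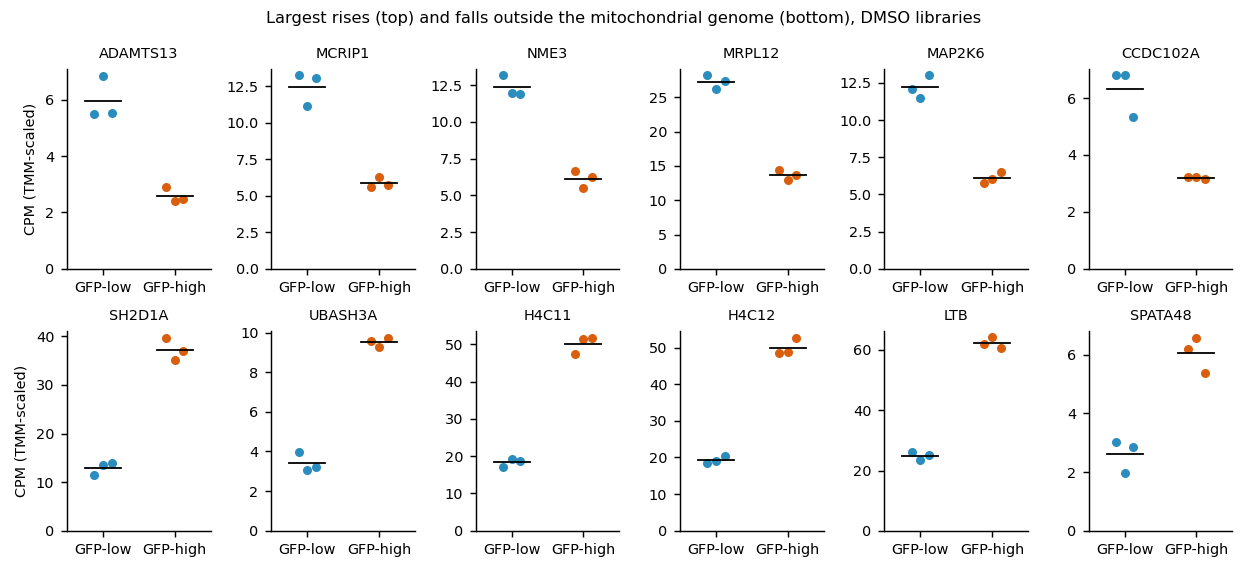
Each panel plots CPM (y axis, from 0) of 1 gene in the 3 GFP-low (left) and 3 GFP-high (right) DMSO libraries, with a line at the group mean. The groups stand apart in every panel, and SH2D1A lies between 11.5 and 13.9 CPM in GFP-low and between 35.2 and 39.6 CPM in GFP-high libraries.

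The mRNAs and rRNAs of the mitochondrial genome were lower in GFP-low than in GFP-high cells under DMSO. The circular genome is read from both strands as long precursors that are cut at the tRNAs into 2 rRNAs and 13 mRNAs for core subunits of the respiratory chain and ATP synthase. All 13 mRNAs fell (13 of 13 lower, against 24.4% of all genes), with a median log2 change of -0.93, and 12 passed the 1.5-fold floor. The mitochondrial genome took 4.73%, 4.72% and 4.84% of counts in GFP-low libraries and 7.88%, 7.91% and 7.84% in GFP-high libraries. Differences between genes were large next to their errors. MT-ATP8, an ATP synthase subunit, had 697, 693 and 732 CPM in GFP-low libraries and 2039, 2096 and 1966 CPM in GFP-high libraries (-1.52 ± 0.031). MT-CO1, the catalytic subunit of cytochrome oxidase, had 13830, 13760 and 14120 CPM in GFP-low libraries and 21570, 21360 and 21760 CPM in GFP-high libraries (-0.63 ± 0.0091). The smallest fall was in MT-ND6, the single mRNA of the light strand, with 227, 221 and 242 CPM in GFP-low libraries and 322, 322 and 314 CPM in GFP-high libraries (-0.48 ± 0.019, or -0.23 after that trend on GC and length was taken out). The groups were apart for all 13.

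Both mitochondrial rRNAs changed more than any mRNA. MT-RNR1, of the small ribosomal subunit, had 90.3, 90.7 and 88.2 CPM in GFP-low libraries and 356, 372 and 350 CPM in GFP-high libraries (-2 ± 0.02). MT-RNR2, of the large subunit, had 153, 152 and 156 CPM in GFP-low libraries and 713, 732 and 697 CPM in GFP-high libraries (-2.22 ± 0.017). Ribosomal RNA was depleted during library preparation, so these counts are of what remained. Of 21 mitochondrial tRNA genes tested 11 were lower and 0 higher, but this depended on the GC and length trend. With it removed, only MT-TF (-1.66), MT-TV (-2.19) and MT-TL1 (-1.23) were called lower. MT-TQ (0.67), MT-TS1 (0.44), MT-TH (1.03), MT-TE (1.39) and MT-TT (0.58) were then called higher. The tRNA genes therefore do not show a fall as a class. MT-ATP8 and MT-ATP6, and MT-ND4L and MT-ND4, overlap on the same strand, so their shared bases could be counted for either, and nuclear copies of mitochondrial sequence add the same uncertainty.

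Nuclear genes that serve the same organelle moved in both directions. Of 74 nuclear respiratory chain and ATP synthase subunits 29 were higher and 19 lower, with a median of 0.03 that was 0.015 and 0.02 without replicate 3 of GFP-low or of GFP-high. With the GC and length trend removed 37 were higher and 16 lower, with a median of 0.07. ATP5F1B, the catalytic beta subunit of ATP synthase, had 866, 880 and 869 CPM in GFP-low libraries and 759, 738 and 754 CPM in GFP-high libraries (0.22 ± 0.013), while UQCRB of complex III changed by -0.47 ± 0.017. NDUFA5 (-0.44) and NDUFV1 (0.3, or 0.15 with that trend removed), both of complex I, went opposite ways. Of 21 genes for mitochondrial transcription and mRNA handling 2 were higher and 11 lower, with a median of -0.13, or -0.05 with that trend removed. TFAM, which packages and activates the mitochondrial genome, was at -0.29 ± 0.024, the RNA-degrading PNPT1 at -0.39 ± 0.024, the single-strand DNA binding SSBP1 at -0.38 ± 0.028 and LRPPRC, a stabiliser of mitochondrial mRNA, at -0.16 ± 0.013. With the trend removed these 4 were at -0.14, -0.24, -0.2 and -0.05. The polymerase gene POLRMT was 1 of the 2 risers, at 0.37 ± 0.039, and at 0.08 and no longer called with that trend removed.

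**Figure D2:**
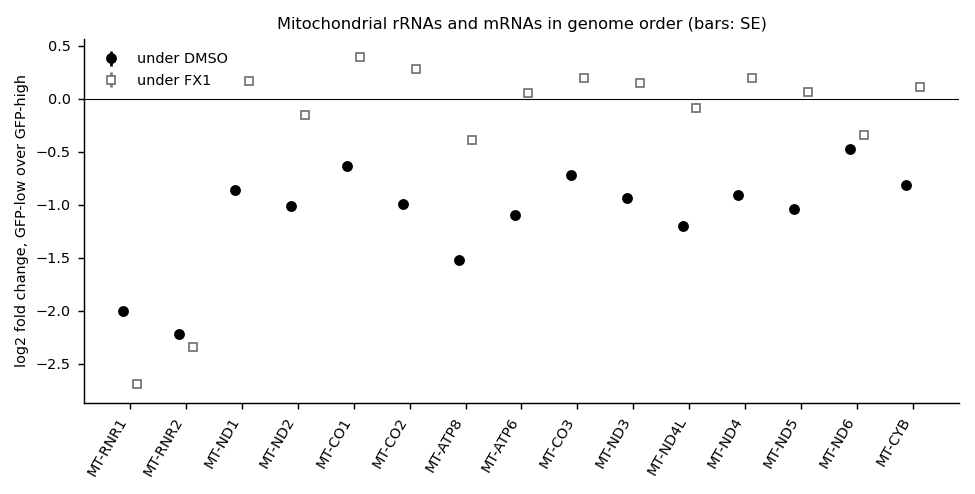
The y axis gives the log2 fold change of GFP-low over GFP-high cells, with SE bars that are mostly smaller than the symbols, for the mitochondrial rRNAs and mRNAs in genome order. Filled circles (DMSO) lie below 0 throughout, from -2.22 for MT-RNR2 to -0.48 for MT-ND6, while open squares (FX1) lie from -0.39 to 0.39 for the mRNAs and at -2.69 and -2.34 for the rRNAs.

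Between the FX1-treated gates the mitochondrial mRNAs differed in another way. Their median gate difference was then 0.11, with 8 of 13 higher and 3 lower, and the difference of the 2 gate differences passed the test for all 13 (31.3% of all genes passed it). MT-CO1 was at -0.63 under DMSO and 0.39 under FX1, a difference of -1.03 (adjusted p = 6.6e-163). Of the 4 groups GFP-high DMSO had the highest mean CPM of each mRNA. For MT-CO1 the means were 13910 in GFP-low DMSO, 21570 in GFP-high DMSO, 14740 in GFP-low FX1 and 11220 in GFP-high FX1. Both rRNAs were lower in GFP-low cells under either treatment, by less under DMSO. Their highest mean was in GFP-high FX1, at 828 CPM for MT-RNR1 and 1022 CPM for MT-RNR2, against 359 and 714 CPM in GFP-high DMSO. MT-RNR1 was at -2 under DMSO and -2.69 under FX1 (difference 0.69, adjusted p = 2.3e-61), and MT-RNR2 at -2.22 and -2.34 (difference 0.13, adjusted p = 1.2e-06).

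The largest falls, leaving aside genes under a mean log2 CPM of 2, were in short structured RNAs. These are spliceosomal small nuclear RNAs (snRNA), which recognise splice sites and catalyse splicing, small nucleolar and Cajal body RNAs (snoRNA, scaRNA), which guide chemical modification of other RNAs, and RNAs such as Y RNA and the RNA of the signal recognition particle. The sequences of 4 of them are shown as examples of a Y RNA, a snoRNA, and a snRNA of the major and of the minor spliceosome. They are given 5′ to 3′ as DNA letters from GENCODE 29 transcripts (GRCh38). Capitals mark matches to ATTTTTG in the snRNAs, letters like those that bind Sm proteins.
RNY1 (chr7:148987136-148987248, minus strand): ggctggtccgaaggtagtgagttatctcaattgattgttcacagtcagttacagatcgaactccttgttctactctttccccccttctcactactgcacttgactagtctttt
SNORA22 (chr7:65755526-65755659, plus strand): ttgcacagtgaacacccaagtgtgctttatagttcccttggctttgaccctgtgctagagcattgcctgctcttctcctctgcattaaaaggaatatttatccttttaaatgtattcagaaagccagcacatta
RNU4-1 (chr12:120293097-120293237, minus strand): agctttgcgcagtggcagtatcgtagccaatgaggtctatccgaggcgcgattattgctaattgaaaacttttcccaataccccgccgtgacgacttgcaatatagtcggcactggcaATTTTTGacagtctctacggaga
RNU4ATAC (chr2:121530881-121531007, plus strand): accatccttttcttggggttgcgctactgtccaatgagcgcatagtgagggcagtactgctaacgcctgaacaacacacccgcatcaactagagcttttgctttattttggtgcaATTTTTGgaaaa

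Among these types 61 genes had a mean log2 CPM of 2 or more, and 42 of them were lower and 5 higher in GFP-low cells, with a median log2 change of -0.62. That cut is on the mean over both gates, and SNORA22 and RNU5B-1 passed it through their GFP-high level only. The count of 42 in 61 therefore does not describe these types as a whole. Of all genes tested, without that cut, 24.4% were lower and 21.7% higher. Over all 590 tested genes of these types, most of them at low counts, 57 were higher and 78 lower, with a median of 0.14. By type, 34 were higher and 9 lower for misc_RNA (median 0.33), 10 and 29 for snRNA (median 0.06) and 13 and 37 for snoRNA (median -0.11). RNY1, a Y RNA bound by the Ro60 protein, had 4.96, 4.44 and 5.62 CPM in GFP-low libraries and 59.2, 71.7 and 52.9 CPM in GFP-high libraries (-3.63 ± 0.14, adjusted p = 9.1e-11). SNORA22, a guide for pseudouridine, had 1.15, 1.21 and 1.25 CPM in GFP-low libraries and 15.9, 16.2 and 15 CPM in GFP-high libraries (-3.71 ± 0.15). The groups were far apart for both. RNU5B-1, a U5 snRNA of the major spliceosome, had 1.62, 1.4 and 2.71 CPM in GFP-low libraries and 13.6, 15.9 and 13.1 CPM in GFP-high libraries (-2.93 ± 0.14). RNU4-1, a U4 snRNA, had 6.58, 5.71 and 6.1 CPM in GFP-low libraries and 35.1, 37.5 and 29.7 CPM in GFP-high libraries (-2.48 ± 0.082). Its near-identical copy RNU4-2, which differs at 4 of 141 positions, was at -2.4 ± 0.12, and the counting could split reads between them. RNVU1-31, a variant U1 snRNA, changed by -2.43 ± 0.09 and also has near-identical copies. RNU4ATAC and RNU6ATAC of the minor spliceosome were at -1.78 ± 0.14 and -2.8 ± 0.23. RNU6ATAC did not meet the rule of level and separate groups used for the largest falls, so its value is less certain.

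Some other short RNAs were higher. Of 172 miRNA hairpin genes tested 32 were higher and 5 lower, against 21.7% higher and 24.4% lower of all genes. The share of rises was thus no larger than among all genes. RN7SL1, the RNA of the signal recognition particle, had 3414, 3540 and 3032 CPM in GFP-low libraries and 1912, 1731 and 1970 CPM in GFP-high libraries (0.83 ± 0.077), and its near-identical copy RN7SL2 cannot be separated from it with certainty. Together the pair took 0.348%, 0.361% and 0.309% of counts in GFP-low and 0.177%, 0.161% and 0.183% in GFP-high libraries. The microRNA hairpin gene MIR3648-1 had 34.9, 35.2 and 35.4 CPM in GFP-low libraries and 9.1, 7.67 and 9.39 CPM in GFP-high libraries (2.03 ± 0.069), another locus with near-identical copies. Small nucleolar, Cajal body and nuclear RNAs took 0.0962%, 0.0956% and 0.0977% of counts in GFP-low and 0.133%, 0.139% and 0.13% in GFP-high libraries.

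**Figure D3:**
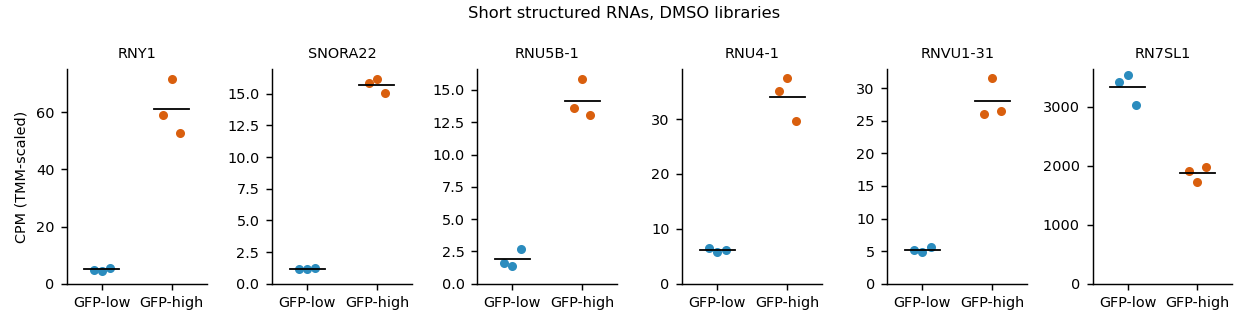
Each panel plots CPM (y axis, from 0) of 1 short RNA in the 3 GFP-low (left) and 3 GFP-high (right) DMSO libraries, with a line at the group mean. The first 5 panels show GFP-low libraries far below GFP-high libraries, from 4.44 to 5.62 against 52.9 to 71.7 CPM for RNY1, and the last, RN7SL1, shows the opposite order.

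RNA of proliferation genes was lower in GFP-low cells. Of 38 genes of G2 phase and mitosis 35 were lower and 2 higher, with a median log2 change of -0.34. SMC4, a core subunit of condensin, had 377, 382 and 380 CPM in GFP-low libraries and 591, 581 and 584 CPM in GFP-high libraries (-0.63 ± 0.015, adjusted p = 2.5e-108). MKI67, the proliferation antigen that coats mitotic chromosomes, had 906, 907 and 914 CPM in GFP-low libraries and 1259, 1252 and 1255 CPM in GFP-high libraries (-0.47 ± 0.012). CENPF, a kinetochore protein, had 442, 455 and 456 CPM in GFP-low libraries and 632, 647 and 634 CPM in GFP-high libraries (-0.5 ± 0.015). The groups did not overlap for any of these. The 2 risers were NUSAP1 (0.68), a spindle protein, and CDC20 (0.22, or 0.1 once the trend was removed), the activator of the anaphase-promoting complex, both singled out after their values were seen.

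Many genes of this list carry the cell cycle gene homology region, TTTGAA on either strand, through which the DREAM and B-MYB complexes are known to act. The promoters of the 4 members with the lowest p are shown for that motif, from 250 bases before to 50 after the RefSeq start (GRCh38.p14), on the strand of the gene, with matches in capitals.
SMC4 (chr3:160399400-160399699, plus strand): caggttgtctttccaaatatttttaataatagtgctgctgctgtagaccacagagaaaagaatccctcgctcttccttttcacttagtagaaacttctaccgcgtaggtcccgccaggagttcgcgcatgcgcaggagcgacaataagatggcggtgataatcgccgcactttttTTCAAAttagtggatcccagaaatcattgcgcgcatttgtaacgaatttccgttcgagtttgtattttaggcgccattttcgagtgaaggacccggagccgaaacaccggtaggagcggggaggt
MKI67 (chr10:128126374-128126673, minus strand): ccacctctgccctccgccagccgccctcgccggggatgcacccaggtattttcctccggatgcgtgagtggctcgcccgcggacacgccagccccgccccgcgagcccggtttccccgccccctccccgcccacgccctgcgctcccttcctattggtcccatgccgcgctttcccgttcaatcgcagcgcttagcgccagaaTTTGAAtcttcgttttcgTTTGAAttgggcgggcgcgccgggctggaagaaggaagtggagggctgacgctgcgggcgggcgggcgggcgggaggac
TOP2A (chr17:40417847-40418146, minus strand): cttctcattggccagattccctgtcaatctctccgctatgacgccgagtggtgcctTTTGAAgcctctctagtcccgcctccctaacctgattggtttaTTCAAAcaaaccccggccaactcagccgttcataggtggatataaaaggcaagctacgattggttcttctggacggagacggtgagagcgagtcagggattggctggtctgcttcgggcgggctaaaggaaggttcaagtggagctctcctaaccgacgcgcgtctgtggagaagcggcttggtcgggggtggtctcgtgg
CENPF (chr1:214602945-214603244, plus strand): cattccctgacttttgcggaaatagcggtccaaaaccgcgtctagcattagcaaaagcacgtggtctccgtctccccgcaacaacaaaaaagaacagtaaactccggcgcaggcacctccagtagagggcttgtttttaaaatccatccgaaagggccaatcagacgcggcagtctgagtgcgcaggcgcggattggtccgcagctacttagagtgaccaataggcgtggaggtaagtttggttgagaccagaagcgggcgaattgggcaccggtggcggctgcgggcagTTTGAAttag

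All 4 windows held the motif. Of the 38 list members 32 had a RefSeq promoter, and 23 of these (71.9%) held TTTGAA or its complement TTCAAA. Of all 35116 promoters 15.2% held it, and among 15063 promoters of tested genes 11.1%. Of 29 members that were lower and had a promoter 21 (72.4%) held it. These 29 are most of the 32, so the shares could not differ much and say nothing on the members that fell.

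DNA replication and histone genes were lower as well. Of 40 genes of G1/S and replication 30 were lower and 3 higher, with a median of -0.22. MCM4 and MCM6, subunits of the replicative helicase, were at -0.34 ± 0.014 and -0.37 ± 0.019 (-0.24 for MCM6 with the GC and length trend removed), and RRM2, of the enzyme that makes deoxynucleotides, at -0.52 ± 0.023. Of 47 replication-dependent histone genes tested 31 were lower and 4 higher, with a median of -0.16. The histone H4 gene H4C11 had 17.2, 19.3 and 18.7 CPM in GFP-low libraries and 47.4, 51.3 and 51.8 CPM in GFP-high libraries (-1.45 ± 0.055). H4C12 had 18.4, 19 and 20.4 CPM in GFP-low libraries and 48.5, 48.7 and 52.7 CPM in GFP-high libraries (-1.38 ± 0.056). H2AC14 was at -0.72 ± 0.031 and H2BC18 at -0.48 ± 0.022. Histone genes of a class are near-identical in sequence, so reads may be shared between them.

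The histone gate difference was wider under FX1. The median over the 47 genes was -0.16 under DMSO and -0.71 under FX1, and the difference passed the test for 42 of 47, each with the lower value under FX1. H2BC18 was at -0.48 under DMSO and -1.38 under FX1 (difference 0.9, adjusted p = 4.6e-64).

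Chaperone RNA was lower in GFP-low cells. Of 25 heat shock and cytosolic chaperone genes 21 were lower and 2 higher, with a median of -0.31. HSPD1, the mitochondrial HSP60, had 1565, 1578 and 1585 CPM in GFP-low libraries and 2184, 2153 and 2149 CPM in GFP-high libraries (-0.46 ± 0.011). HSPA8, the constitutive HSP70, had 2352, 2322 and 2355 CPM in GFP-low libraries and 2989, 3005 and 2940 CPM in GFP-high libraries (-0.35 ± 0.011). HSP90AB1, the constitutive HSP90, was at -0.31 ± 0.011. All 8 genes of the CCT ring, which folds actin and tubulin, were lower, with a median of -0.24, or -0.15 with the GC and length trend removed. CCT6A had 569, 551 and 566 CPM in GFP-low libraries and 740, 735 and 729 CPM in GFP-high libraries (-0.39 ± 0.014). CCT5 was at -0.39 ± 0.015, CCT8 at -0.28 ± 0.015 and TCP1 at -0.25 ± 0.013, the last pair at -0.16 and -0.13 with that trend removed.

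Heat shock genes are known targets of HSF1, which binds inverted repeats of GAA. Both GAANNTTC and TTCNNGAA were searched. They read the same on both strands and may overlap. Among the 4 members with the lowest p the windows of HSP90AA1, HSPD1 and HSP90AB1 held neither, and that of HSPA8 held 4 matches, shown in capitals.
HSPA8 (chr11:123062087-123062386, minus strand): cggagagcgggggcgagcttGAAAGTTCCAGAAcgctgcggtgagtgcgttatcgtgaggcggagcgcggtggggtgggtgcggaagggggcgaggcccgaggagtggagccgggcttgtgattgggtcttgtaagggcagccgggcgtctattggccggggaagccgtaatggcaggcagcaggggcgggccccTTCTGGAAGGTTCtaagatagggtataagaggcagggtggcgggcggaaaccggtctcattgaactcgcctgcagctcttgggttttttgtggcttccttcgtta

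Of 22 list members with a RefSeq promoter 6 (27.3%) held a match, against 13.5% of all promoters and 10.7% of those of tested genes. Of 19 lower members with a promoter 4 (21.1%) held a match.

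B-cell state genes moved in both directions. Of 24 germinal centre identity genes 5 were higher and 9 lower, with a median of -0.03 that was -0.014 and -0.018 without replicate 1 of GFP-high or of GFP-low, and -0.01 with the GC and length trend removed. SERPINA9, a germinal centre serpin, had 100, 103 and 102 CPM in GFP-low libraries and 149, 148 and 149 CPM in GFP-high libraries (-0.55 ± 0.024). IRF8, a transcription factor that cooperates with BCL6 in these cells, was at -0.4 ± 0.024, and BCL6 itself had 345, 343 and 329 CPM in GFP-low libraries and 400, 401 and 399 CPM in GFP-high libraries (-0.24 ± 0.017). S1PR2, the sphingosine phosphate receptor that holds B cells in the follicle, rose: 208, 216 and 210 CPM in GFP-low libraries and 149, 152 and 155 CPM in GFP-high libraries (0.48 ± 0.022). RGS13, which dampens chemokine receptor signalling, fell (-0.43 ± 0.017, or -0.28 with the trend removed).

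Of 13 dark-zone markers 7 were higher and 4 lower, with a median of 0.14 (0.04 with the GC and length trend removed), while 3 of the members with the lowest p, MKI67, TOP2A and the translesion polymerase gene POLH (-0.35), were lower. The fourth, TCF3, was at 0.15 ± 0.016, but at -0.05 with that trend removed. Of 22 light-zone and CD40 response genes 7 were higher and 9 lower, with a median of -0.05 (-0.09 with the trend removed, and -0.085, -0.078 and -0.071 without replicate 3 or 2 of GFP-low or replicate 2 of GFP-high). EGR1, an immediate early factor, had 67, 67.6 and 66.2 CPM in GFP-low libraries and 101, 104 and 97.8 CPM in GFP-high libraries (-0.59 ± 0.036). CCR7, the receptor that draws B cells towards the T-cell zone, had 65.2, 68.5 and 66.8 CPM in GFP-low libraries and 46.6, 44.3 and 43.9 CPM in GFP-high libraries (0.58 ± 0.037). Of 15 migration receptor genes 6 were higher and 6 lower, with a median of 0.02 (0.08 with the trend removed) that was -0.014 without replicate 2 of GFP-high, 0.07 without replicate 3 of GFP-high and 0.044 without replicate 1 of GFP-low. ITGB1, the beta chain of fibronectin-binding integrins, was at -0.42 ± 0.023 (-0.26 with the trend removed).

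The plasma-cell list went both ways. Of 14 genes 3 were higher and 5 lower, with a median of -0.01 whose sign changed without replicate 3 of GFP-low (0.003) or of GFP-high (0.008), and that was -0.026 and -0.008 without replicate 1 or 2 of GFP-low. JCHAIN, which links antibody monomers, had 488, 513 and 523 CPM in GFP-low libraries and 723, 730 and 727 CPM in GFP-high libraries (-0.52 ± 0.014, or -0.34 with the GC and length trend removed). CD38, an ectoenzyme of germinal centre and plasma cells, had 29.9, 26.5 and 28.6 CPM in GFP-low libraries and 50, 47.5 and 46.7 CPM in GFP-high libraries (-0.77 ± 0.048). CD27, a receptor of memory B cells, was at -0.59 ± 0.035. PRDM1 rose, and 6 of the 14 did not pass the test.

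Antibody constant region genes did not move as a family. Raji expresses IgM, and IGHM was at 2444, 2458 and 2391 CPM in GFP-low libraries and 2404, 2377 and 2424 CPM in GFP-high libraries (0.02 ± 0.011, adjusted p = 0.17). The groups overlapped for IGHM, which with the GC and length trend removed was at -0.16 and called. IGHA1 (0.85 ± 0.048), IGHE (1.97 ± 0.16), IGHA2 (1.17 ± 0.13) and IGHG2 (0.52 ± 0.087) were higher. IGHG3 (0.35 ± 0.091) was higher as well, though not once the trend was removed, and IGHG1 was at 0.08 ± 0.031 and at -0.1 with the trend removed. IGLC3 was lower (-0.27 ± 0.091), and IGHD (-0.29 ± 0.31), IGHG4 (0.24 ± 0.53) and IGLC2 (-0.12 ± 0.16) did not pass the test. IGHE had 7.33, 8.09 and 7.32 CPM in GFP-low libraries and 2.32, 1.72 and 1.83 CPM in GFP-high libraries. IGHA1 and IGHA2 are near-identical, so reads may be shared. IGKC, the kappa light chain, was at 0.24 ± 0.028.

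Genes of the B-cell receptor and NF-kB lists were more often lower than higher. Of 22 B-cell receptor signalling genes 7 were higher and 12 lower, with a median of -0.11 (-0.17 with the GC and length trend removed). CR2, the complement coreceptor, had 453, 445 and 450 CPM in GFP-low libraries and 694, 695 and 687 CPM in GFP-high libraries (-0.62 ± 0.015). MS4A1, which encodes CD20, was at -0.55 ± 0.013 and the Fc receptor-like gene FCRLA at -0.51 ± 0.033, whereas CD79B, a signalling chain of the receptor, was at 0.37 ± 0.019 (0.22 with the trend removed). Of 24 NF-kB subunits and targets 7 were higher and 15 lower, with a median of -0.15, and LTA, the soluble lymphotoxin, was at -0.65 ± 0.034. BIRC3, an inhibitor of apoptosis induced by NF-kB, was at -0.21 ± 0.012, or -0.06 with the trend removed. Of 18 AP-1 and immediate early genes 1 was higher and 7 lower, 44.4% against 46.1% of all genes, with a median of -0.13 (-0.2 with the trend removed and -0.086 without replicate 2 of GFP-high). The riser was DUSP5, a phosphatase of ERK (0.58 ± 0.045). FOS had 55.3, 60.3 and 52.7 CPM in GFP-low libraries and 79.8, 86.9 and 85.1 CPM in GFP-high libraries (-0.58 ± 0.041).

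Antigen presentation genes went both ways. Of 16 MHC class II genes 5 were higher and 8 lower (median -0.013, from -0.02 to -0.031 without replicate 2 or 3 of GFP-high or replicate 1 of GFP-low), with the invariant chain CD74 at -0.27 ± 0.011, HLA-DPA1 at -0.3 ± 0.016, HLA-DRA at -0.17 ± 0.012 and the promoter-binding factor RFX5 at 0.19 ± 0.023. Once the trend was removed CD74 was at -0.41, HLA-DPA1 at -0.2 and HLA-DRA at -0.11. Of 16 MHC class I genes 4 were higher and 5 lower (median -0.035, or -0.11 with the trend removed, and -0.018, -0.001 and -0.011 without replicate 1 or 3 of GFP-high or replicate 2 of GFP-low). B2M, the shared light chain, was at -0.34 ± 0.014 (-0.18 with the trend removed), the chaperone CALR at -0.19 ± 0.013 and PSMB10 at 0.92 ± 0.11. Of 23 interferon response genes 7 were higher and 3 lower (median 0.12, or 0.185 and 0.067 without replicate 2 or 3 of GFP-high), a share of calls of 43.5% against 46.1% for all genes. IRF1 was at 0.21 ± 0.033 and IFIH1, an RNA sensor, at -0.27 ± 0.047 (-0.14 with the trend removed).

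Most members of the BCL2 family that passed the test were higher. These proteins set the threshold for release of cytochrome c from mitochondria. Of 15 members tested 9 were higher and 3 lower, with a median of 0.29 (0.16 with the GC and length trend removed). MCL1, a protector on which many B-cell tumours rely, had 328, 330 and 328 CPM in GFP-low libraries and 448, 451 and 447 CPM in GFP-high libraries (-0.45 ± 0.016). BCL2A1, another protector, had 8.23, 8.91 and 8.08 CPM in GFP-low libraries and 14.5, 14.3 and 13.3 CPM in GFP-high libraries (-0.73 ± 0.087). BCL2L11, which encodes the BH3-only killer BIM, had 500, 495 and 498 CPM in GFP-low libraries and 403, 398 and 400 CPM in GFP-high libraries (0.31 ± 0.015). The protector BCL2L1 (BCL-XL) was higher, with 407, 407 and 397 CPM in GFP-low libraries and 324, 336 and 326 CPM in GFP-high libraries (0.3 ± 0.016, or 0.19 with the trend removed). The other risers were the killers BIK (0.73), HRK (0.58), BAD (0.49), BBC3 (0.32), BAK1 (0.3), BMF (0.29) and BID (0.15), and the other faller was the killer PMAIP1 (-0.21). These are listed after their values were seen, the groups overlapped for BBC3 and BID, and BBC3 and PMAIP1 were not called with the trend removed, when BAD was at 0.22 and BAK1 at 0.16. Of 20 p53 targets 3 were higher and 11 lower, with a median of -0.16 (-0.1 with the trend removed), with CCNG1 at -0.33 ± 0.02, the death receptor FAS at -0.34 ± 0.037 and the antiproliferative BTG2 at -0.23 ± 0.019. With the trend removed CCNG1 was at -0.15 and FAS at -0.16.

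Genes of chromatin complexes moved in both directions. SMARCA4 (ENSG00000127616.20, hg38 chromosome 19, 10960932 to 11079426) had 392, 392 and 401 CPM in GFP-low libraries and 384, 382 and 376 CPM in GFP-high libraries, a log2 change of 0.05 ± 0.015 (adjusted p = 0.002) that was -0.16 once the GC and length trend was removed. Its paralogue SMARCA2 had 72.1, 70.9 and 72.4 CPM in GFP-low libraries and 74.2, 74.7 and 74.6 CPM in GFP-high libraries and did not pass the test (-0.06 ± 0.033, adjusted p = 0.16). Of 28 SWI/SNF subunits 9 were higher and 11 lower, with a median of 0.01 that was -0.06 with the trend removed and -0.007, -0.006 and -0.014 without replicate 1 or 2 of GFP-high or replicate 1 of GFP-low, and 0.021 without replicate 2 of GFP-low. BRD7, of the PBAF form of the complex, had 116, 114 and 112 CPM in GFP-low libraries and 159, 155 and 153 CPM in GFP-high libraries (-0.45 ± 0.026). PBRM1, also of PBAF, was at -0.3 ± 0.021 (-0.18 with the trend removed), the scaffold SMARCC1 at -0.19 ± 0.015, and ARID1B, of the BAF form, at 0.25 ± 0.017 (0.11 with the trend removed). Of 28 Polycomb subunits 6 were higher and 8 lower, 50% against 46.1% of all genes (median 0.002, between -0.022 and 0.019 without 1 library, or -0.001 with DESeq2's size factors and -0.02 with the trend removed). SUZ12, of the complex that methylates histone H3, was at -0.34 ± 0.021 (-0.18 with the trend removed), and CBX7, a reader of that mark, at 0.53 ± 0.056. Of 15 histone and DNA modifier genes mutated in lymphoma 7 were higher and 2 lower, with a median of 0.05 that was 0.031 without replicate 1 of GFP-high and 0.026 without replicate 3 of GFP-low. With the trend removed 5 were higher and 7 lower, with a median of -0.04. The corepressor subunit TBL1XR1 was at -0.38 ± 0.014 and the methyltransferase genes KMT2D and SETD2 at 0.33 ± 0.018 and -0.18 ± 0.018, or 0.05 and -0.09 with the trend removed.

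Lipid synthesis genes were more often higher than lower. Of 22 cholesterol synthesis genes 12 were higher and 6 lower (median 0.14). SQLE, which oxidises squalene, had 361, 356 and 364 CPM in GFP-low libraries and 491, 484 and 476 CPM in GFP-high libraries (-0.42 ± 0.016). Of 12 fatty acid synthesis genes 6 were higher and 4 lower (median 0.1). FASN, the fatty acid synthase, had 1514, 1511 and 1465 CPM in GFP-low libraries and 1039, 1013 and 1036 CPM in GFP-high libraries (0.54 ± 0.012, or 0.22 with the GC and length trend removed). ACLY, which supplies cytosolic acetyl-CoA, had 1456, 1456 and 1453 CPM in GFP-low libraries and 1075, 1068 and 1087 CPM in GFP-high libraries (0.43 ± 0.012). The chain-lengthening enzymes ELOVL6 and ELOVL5 were lower, at -0.59 ± 0.025 and -0.24 ± 0.018 (-0.09 for ELOVL5 with the trend removed). Of 28 glycolysis and hypoxia genes 10 were higher and 8 lower (median 0.012, or 9 higher and 11 lower and 0.03 with the trend removed, and from 0.006 to 0.024 without 1 library), with LDHA at -0.32 ± 0.012 (-0.21 with the trend removed), PFKFB4, a regulator of glycolytic flux, at 0.47 ± 0.025 and GPI at 0.23 ± 0.013.

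Growth and protein quality genes moved in both directions. Of 79 cytosolic ribosomal proteins 33 were higher and 38 lower, with a median of -0.02 that was 0.03 with the trend removed. RPS24 had 973, 948 and 977 CPM in GFP-low libraries and 1379, 1393 and 1377 CPM in GFP-high libraries (-0.52 ± 0.012), and RPL39 had 122, 118 and 126 CPM in GFP-low libraries and 71.8, 77 and 71.4 CPM in GFP-high libraries (0.73 ± 0.03). Ribosomal protein genes have many processed copies, so reads may be shared. Of 31 genes of MYC and ribosome biogenesis 10 were higher and 14 lower (median -0.1), with the nucleolar proteins NPM1 and NOP58 at -0.39 ± 0.011 and -0.44 ± 0.02 (-0.29 for NOP58 with the trend removed) and the helicase DDX21 at -0.41 ± 0.013. All 20 aminoacyl-tRNA synthetases were called (46.1% of all genes were), 7 higher and 13 lower. Their median was -0.09, or -0.03 with the trend removed, when 3 were higher and 9 lower. TARS1 was at -0.34 ± 0.019. Of 31 proteasome genes 6 were higher and 15 lower (median -0.06), and with the trend removed 10 were higher and 9 lower (median -0.02). PSMD12 was at -0.42 ± 0.025, or -0.26 with the trend removed. Of 20 unfolded protein response genes 4 were higher and 11 lower (median -0.09), and with the trend removed 7 were higher and 7 lower (median -0.02), with the lectin chaperone CANX at -0.32 ± 0.012 (-0.18 with the trend removed) and the disulphide isomerases PDIA3 and PDIA6 at -0.39 ± 0.015 and -0.32 ± 0.016. Of 20 ATF4 response genes 11 were higher and 4 lower (median 0.12, or 0.07), with the amino acid transporter chain SLC3A2 at 0.28 ± 0.023 (0.17 with the trend removed). Of 14 NRF2 response genes 5 were higher and 6 lower (median 0.041, or -0.01 with the trend removed, and 0.027 and 0.025 without replicate 3 of GFP-high or of GFP-low), with the ferritin chain FTL at 0.22 ± 0.015 and TXNRD1 at -0.19 ± 0.017 (-0.1 with the trend removed).

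Nuclear RNAs and splicing regulators were lower. NEAT1, the long noncoding RNA that builds paraspeckles, had 948, 957 and 955 CPM in GFP-low libraries and 1430, 1453 and 1442 CPM in GFP-high libraries (-0.6 ± 0.012, adjusted p = 1.5e-125). MALAT1, of nuclear speckles, had 6348, 6284 and 6386 CPM in GFP-low libraries and 7871, 7871 and 7834 CPM in GFP-high libraries (-0.31 ± 0.0094, or -0.2 with the trend removed). Of 11 nuclear-retained noncoding RNAs 2 were higher and 9 lower, with a median of -0.18 (-0.07 with the trend removed). Of 18 SR-family and CLK genes 15 were lower and 0 higher, with a median of -0.14 (-0.05 with the trend removed, when 9 were lower and 2 higher). SRSF5 was at -0.48 ± 0.022, SRRM1 at -0.43 ± 0.015, SRSF10 at -0.34 ± 0.015 and TRA2B at -0.32 ± 0.015. With the trend removed SRSF5 was at -0.31, SRSF10 at -0.18 and TRA2B at -0.17. The abundant mRNAs PABPC1, of the poly(A) binding protein, and EEF1A1, of translation elongation, were at -0.39 ± 0.0099 and 0.08 ± 0.0089.

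**Figure D4:**
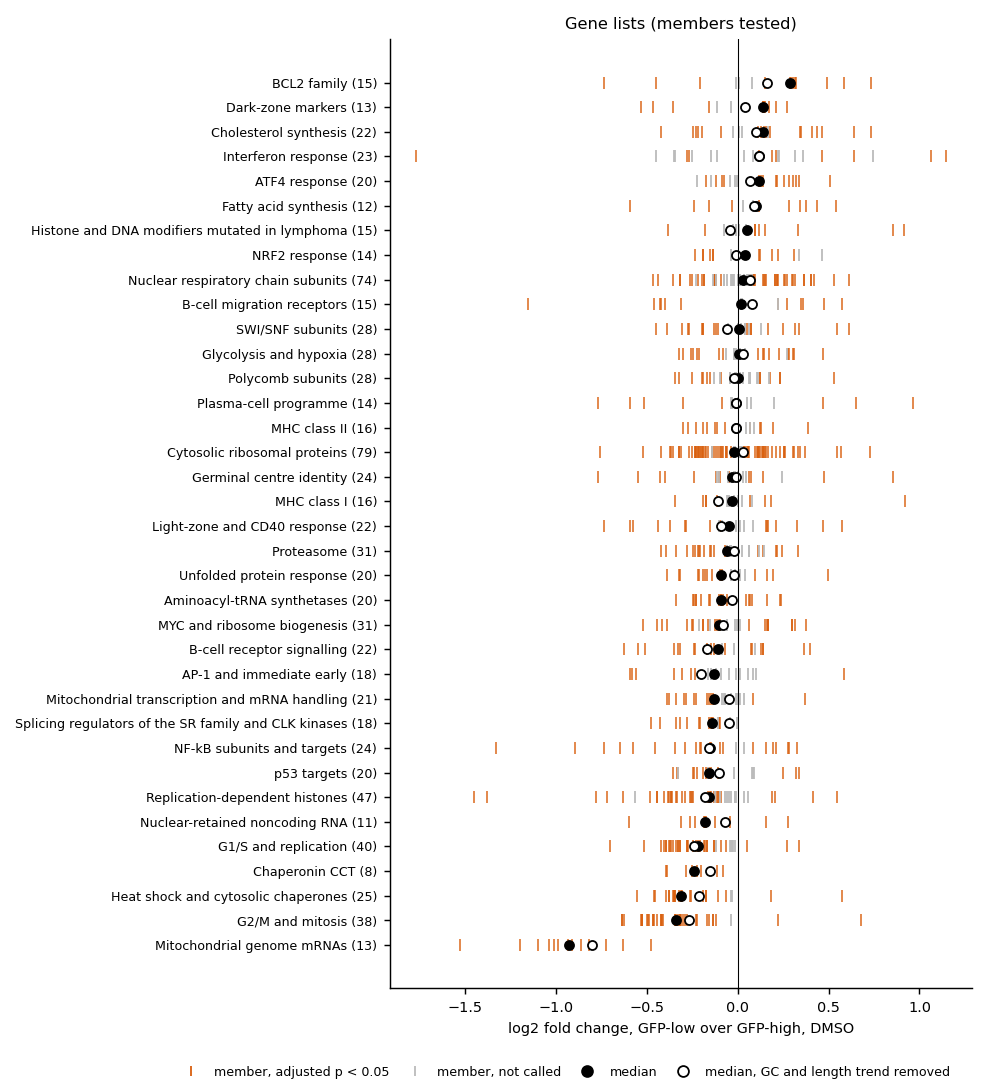
Each row is a gene list, ordered by its median, with a tick for every tested member at its log2 fold change of GFP-low over GFP-high cells under DMSO (x axis). Filled circles are medians, among the lists drawn from 0.29 for the BCL2 family to -0.93 for the mitochondrial mRNAs. Open circles are the medians with the GC and length trend removed, which for most lists lie nearer to 0. A list of short structured noncoding RNAs, with 4 members tested and a median of -2.29, is not drawn.

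The gate difference followed the base composition of the transcripts. Over 9501 protein-coding genes with a mean log2 CPM of 2 or more, Spearman's rho between the log2 change and transcript GC content was 0.54, and with transcript length -0.03. The correlation is across genes, which share the same 6 libraries and are not independent replicates. In the fifth of genes with the lowest GC content, 40.3% or less, the median log2 change was -0.17, and in the fifth with the highest, 57.2% or more, it was 0.2. Most list medians in the text are no larger than this. The same relation held between the gates under FX1, with rho 0.71. With a GC and length trend removed from each library, rho was 0.04. Of 8183 calls that could be followed 5515 were then still called in the same direction, 160 were called in the opposite one and 2508 were not called. The G2/M list has a median transcript GC content of 42.6% and was at -0.27 with the trend removed, the histones 57.3% and at -0.18, the chaperones 47% and at -0.21. The cause of the trend was not tested.

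**Figure D5:**
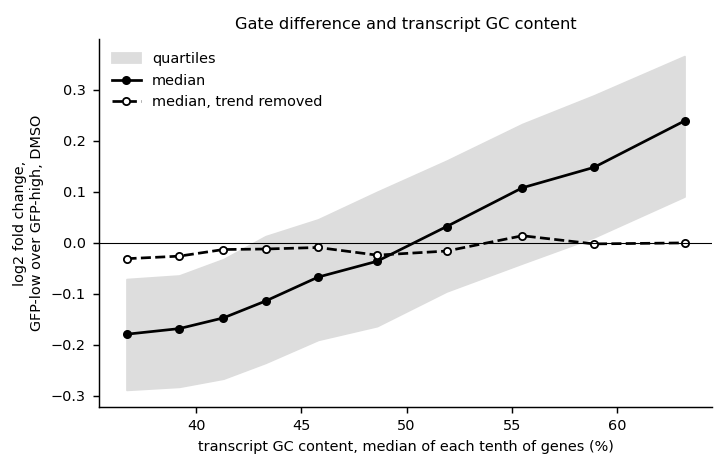
The x axis gives the median transcript GC content of each of 10 equal bins of expressed protein-coding genes of the nuclear genome, and the y axis the log2 fold change of GFP-low over GFP-high cells under DMSO. The median (filled circles, with quartiles shaded) runs from -0.18 in the bin with the lowest GC content to 0.24 in that with the highest, and stays within 0.04 of 0 after removal of the trend (open circles).

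The gate difference under DMSO was then set against that under FX1, which uses none of the same libraries. The difference between the 2 passed the test for 5583 genes (31.3%). Of 6459 genes called in both, 5965 (92.4%) went the same way. Across protein-coding genes the gate differences had a Spearman rho of 0.74 (Pearson 0.72), and both share the GC trend. Of the 199 genes past the 1.5-fold floor 165 had the same sign under FX1 and 122 were also called there, while the difference between the gate differences passed the test for 123. SH2D1A was at -1.52 under DMSO and -1.49 under FX1 (difference -0.03, adjusted p = 0.87), LTB at -1.33 and -1.25, and ADAMTS13 at 1.22 and 1.19. MRPL12, by contrast, was at 1 under DMSO and 0 under FX1 (difference 1, adjusted p = 1.1e-24), and PSMB10 at 0.92 and -0.02 (difference 0.94, adjusted p = 2.7e-09). NEAT1 was at -0.6 under DMSO and 0.44 under FX1 (difference -1.03, adjusted p = 2.6e-145), and FOS at -0.58 and 0.65 (difference -1.23, adjusted p = 1.7e-18). BCL6 was at -0.24 and 0.13 (difference -0.36, adjusted p = 6.2e-32). Several B-cell genes were lower in GFP-low cells by more under FX1: RGS13 at -0.43 under DMSO and -1.24 under FX1, JCHAIN at -0.52 and -1.07, LTA at -0.65 and -1.61, and SLAMF1 at -0.44 and -1.1. For these 4 the difference lay between 0.55 and 0.96 on the log2 scale, with adjusted p of 3.5e-66 or less for RGS13 and JCHAIN, 1.7e-52 for LTA and 6.1e-35 for SLAMF1.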

How the data were processed

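Total RNA was depleted of ribosomal RNA and sequenced, per the labels' protocols. The authors deposited raw counts of reads per gene. The submitters' processing notes name FastQC, STAR, featureCounts of Subread, R 4.2.1 and the genome build hg38. Other versions, the annotation release and the strand setting are not given in the sources used here. Of 60710 lines 3, a broken record of 1 gene, were left out.

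The 4 groups of 3 libraries were fitted together with edgeR 4.0.16 (R 4.3.3, limma 3.58.1): filterByExpr, TMM scaling, quasi-likelihood test, 8 residual degrees of freedom, Benjamini-Hochberg adjusted p under 0.05. glmTreat tested against 1.5-fold. Log2 changes are GFP-low minus GFP-high, and an interaction term compared the DMSO with the FX1 gate difference. The scripts were tested on simulated data. The GC and length trend was removed with natural splines of 5 degrees of freedom per library. Other alternatives were DESeq2 1.42.0, DESeq2's size factors, other filters, the 6 DMSO libraries alone, a replicate block, and leaving out each library. Promoters came from RefSeq, with 1 entry per gene for list members and every entry for the background shares.

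Genes named are those with the 12 largest rises and falls among protein-coding genes and the 5 largest among other types (called, mean log2 CPM of at least 2, groups not overlapping), up to 4 called members of lowest p per list, SMARCA4, SMARCA2, BCL6 and PRDM1, and the 12 called genes of highest CPM. The level is a mean over both gates, so some genes passed through the higher gate only, IGHE and IGHA2 among them. The members and lists were chosen with earlier results of these data known. The mitochondrial genome, antibody constant genes and short RNA types were described whole after their values were seen. Lists were given counts and medians, with no test. The deposited counts carry whole-library depth, so the precision is counting error plus the spread of 3 libraries.

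A few items that the naming rule selects are not reported here.

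Same-numbered libraries did not deviate together (correlations 0.02, -0.01 and 0.01). Counting error is a large part of these deviations, so the correlations cannot tell whether the numbers pair the libraries.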

Additional observations from a re-analysis of the deposited data

Results flagged for a closer look

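Among the genes of largest change and the 4 genes named for the degron and FX1, 9 had a gate difference under DMSO, minus that under FX1, of at least 1 in size on the log2 scale that passed edgeR's interaction test with Benjamini-Hochberg adjustment. Each contrast rests on 3 libraries per group. SNORA22 differed by -3.77 (adjusted p = 1.5e-26), being at -3.71 under DMSO and 0.06 under FX1. Its mean was 1.2 CPM in GFP-low DMSO and 15.7 CPM in GFP-high DMSO. Under FX1 both gates were low, at 0.9 CPM in GFP-low and 0.86 CPM in GFP-high. RNU5B-1 differed by -2.04, RNVU1-31 by -1.48 and RNU4-1 by -1.29, all lower in GFP-low cells under both treatments and by more under DMSO. These RNAs were also low in both FX1 gates. Mean CPM in GFP-low and GFP-high FX1 was 0.97 and 1.88 for RNU5B-1, 1.88 and 3.6 for RNVU1-31, and 1.4 and 3.22 for RNU4-1. CHD5 differed by -1.92 (adjusted p = 1e-13), being at -1.14 under DMSO and 0.78 under FX1. MT-ATP6 differed by -1.15, MT-ATP8 by -1.13 and MT-ND4L by -1.11. MIR3648-1 differed by 1.31, at 2.03 under DMSO and 0.71 under FX1. Other genes named in the text that differed by as much were FOS (-1.23), MT-ND4 (-1.1), NEAT1 (-1.03), MT-CO1 (-1.03), RNU6ATAC (-2.07), RNU4ATAC (-1.36) and RNU4-2 (-1.34).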

How the results depend on the processing

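The count of genes that differed between the gates, 8233, was 199 when tested against a 1.5-fold change, a stricter question by construction. It was 8232 with DESeq2's size factors, 7462 with no filter, 7749 with a stricter filter, 8235 with mitochondrial and very abundant genes left out before scaling, 8072 with the 6 DMSO libraries alone and 7383 with DESeq2. Leaving out 1 library gave 7451 to 8275, and 5167 to 5432 for the interaction (5583 in full). The replicate block gave 8213 calls, 8178 of them the same genes in the same direction, and 5536 for the interaction. Across replicate numbers 3 of 6 libraries correlated best with their own number. Removing the GC and length trend gave 7452 calls and turned SMARCA4 to -0.163, TCF3 to -0.047, BBC3 to -0.039 and IGHM to -0.165. The cause was not tested. The share of calls that were higher was 47.1% and ran from 45.1% to 53.3%.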
